A study of Rattus norvegicus with 18 samples.

Results

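The comparison described here is between solvent control cells at different times. It sets 3 arrays of NRK-52E cells after 72 h in 0.1% DMSO against 3 arrays of the same line after 24 h in it. These are 6 of the 18 arrays of the series. The arrays were chosen by their titles alone, so no measured value entered the choice. NRK-52E is an established line of rat kidney epithelium, described in the labels as proximal tubular and of strain Osborne-Mendel. The series was built to follow aristolochic acid (AA), a plant nitrophenanthrene carcinogen that injures the kidney tubule, and the solvent arrays were its controls. Cells were grown to confluence in multi-well plates in DMEM with fetal calf serum and antibiotics, and were then exposed for 6, 24 or 72 h either to the solvent, 0.1% DMSO, or to 1.65 µM AA dissolved in it. Each of the 6 groups had 3 arrays. No group without DMSO was among the samples, every group carries the time since dosing and the time since confluence together, and nothing in the labels says whether medium was renewed between 24 h and 72 h. The arrays of AA cells at 24 h and 72 h, which share no array with the solvent comparison, and the solvent arrays at 6 h are used below only for comparison.

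Epithelial cells that reach confluence meet several changes at once. Contacts between neighbours restrain division, the medium is depleted of growth factors, sugars and lipoproteins as days pass, and tight junctions and polarity mature. Genes of mitosis are transcribed late in the cell cycle through promoter elements bound by the MuvB, B-Myb and FoxM1 complexes, whereas genes of DNA replication are transcribed earlier through E2F sites. Genes of cholesterol synthesis are under SREBP2, which is activated when membrane sterol is low. These are background and were not measured as such here.

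The values are log2 array signals, 1 per probe set, and a difference of 1 is 2-fold. Of 9016 genes tested, 1551 were higher at 72 h than at 24 h (17.2%) and 1545 were lower (17.1%) at an adjusted p under 0.05, together 34.3%. Counts of list members below are to be read beside these shares, and several lists lie near them. In 52.6% of the tested genes, called or not, the arrays of the groups did not overlap. The adjusted p is that of limma's moderated test with Benjamini-Hochberg adjustment, here and throughout. The changes were mostly small: the median size among called genes was 0.48 on the log2 scale, and 4.24% of the tested genes changed at least 2-fold, 179 upward (1.99%) and 203 downward (2.25%). The labels call the arrays of a group biological replicates and speak of 3 studies per time point, without saying whether these used separate cultures or days or share their replicate numbers, so p-values measure only the spread between these samples. In RNA from whole wells, fewer cells of a kind and less RNA per cell cannot be told apart.

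The first principal component of the 6 arrays held 75.5% of their variance and separated the times, with scores from -23.4 to -21.2 at 24 h and from 21.2 to 23.0 at 72 h. The second held 11.4% and set replicate 3 of the 24 h group (-16.7) apart from replicates 1 (9.95) and 2 (7.56). Replicate 3 of the 72 h group was the lowest of its group for many genes named below. List counts that rest on either array are therefore also given without it. The 3′ minus 5′ signal of beta-actin, a measure of RNA integrity, was 1.23 at 24 h and 1.35 at 72 h (exact permutation test, two-sided, p = 0.1, the smallest that 3 arrays against 3 allow). That of Gapdh was -0.22 and -0.21 (p = 0.9 in the same exact test).

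The proximal tubule label was checked against marker genes. Of 51 proximal tubule transporters and enzymes on the array, 41 lay below the filter on low signal. Dab2 (12.25 at 24 h and 12.97 at 72 h) and Slc22a5 (9.23 and 8.95) were high in both groups. So were Enpep (9.18 and 9.02) and Slc4a4 (8.68 and 8.62), while Aqp1 was high at 72 h only (3.21 and 8.43). Those at the array floor in both groups included megalin (Lrp2, 2.32 at 24 h and 2.33 at 72 h), cubilin (Cubn, 1.95 and 1.96), the phosphate transporter Slc34a1 (2.27 and 2.29) and the glucose transporter Slc5a2 (2.29 and 2.31). Of 39 epithelial junction and keratin genes 22 were likewise below the filter, among them E-cadherin (Cdh1, 2.57 and 2.60) and Epcam (2.42 and 2.45), while Krt8, Tjp1 and the catenins were high. None of 18 markers of the loop, distal tubule and collecting duct passed the filter, and the mean signal of that list ran from 2.22 to 2.28 over the 6 arrays. Of 14 fibroblast markers 5 passed, all genes of the matrix. They were Mfap5 (14.40 and 14.46), Col3a1 (14.16 and 14.64), Postn (11.96 and 10.78), Col1a2 (10.65 and 10.05) and Col1a1 (9.77 and 7.48). Pdgfra (1.87 and 1.89), Dcn (1.88 and 1.89) and Thy1 (2.21 and 2.23) were at the floor. Of 11 endothelial markers Tek alone passed (5.41 and 6.21), with Pecam1 at 2.14 and 2.16. Of 16 immune cell markers Cd14 (11.85 and 11.20) and Cd68 (4.06 and 3.33) passed, with Ptprc at 2.73 and 2.77. Of 6 podocyte markers 3 passed, Cd2ap (12.53 and 12.49), Synpo (8.87 and 9.17) and Wt1 (5.65 and 5.68), none of them called, while nephrin (Nphs1, 2.31 and 2.33) and Podxl (2.73 and 2.87) were near the floor. Few of the defining genes of the proximal tubule thus gave a signal above the floor at either time, and the name NRK-52E is used for the cells. A floor reading of a probe set does not show that its gene is silent. Most ribosomal protein genes read high, but Rpl30 (2.58 at 24 h and 2.60 at 72 h) and Rps13 (2.82 and 2.95) also lay near the floor.

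Genes of the G2 phase and mitosis rose together between 24 h and 72 h. Of 58 tested genes of this list 56 were higher at 72 h and 1 lower, against 17.2% and 17.1% of all genes, with a median log2 difference of 1.11 where that of all tested genes was -5e-05. Cenpf, a kinetochore protein, read 7.85, 8.15 and 8.08 at 24 h and 9.83, 10.02 and 9.63 at 72 h, a difference of 1.80 ± 0.18 (SE, n = 3 and 3, adjusted p = 5.59e-07). The groups were well separated, as they were for most members: in 54 of 58 all 72 h arrays lay above all 24 h arrays, where 26.7% of all tested genes had that arrangement. Ube2c, the ubiquitin-conjugating enzyme of the anaphase-promoting complex, read 7.90, 8.30 and 8.31 at 24 h and 9.88, 9.93 and 9.39 at 72 h, which was 2.96-fold higher. Cdc20, the activator of that complex, read 7.65, 7.95 and 7.62 at 24 h and 9.29, 9.41 and 8.94 at 72 h (1.47 ± 0.20). The 2 genes thus rose by a like amount, and replicate 3 was the lowest 72 h array in both.

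The same was seen across the roles within mitosis. Top2a, which disentangles sister chromatids, rose by 1.44 ± 0.16, from 8.66, 9.13 and 9.44 to 10.56, 10.76 and 10.23. The hyaluronan-mediated motility receptor Hmmr, a spindle protein, rose by 1.56 ± 0.22, from 6.26, 6.02 and 5.99 to 7.98, 7.92 and 7.05. The cyclin-dependent kinase Cdk1, which drives entry into mitosis, rose from 10.92, 11.10 and 11.05 to 12.13, 12.22 and 11.72 (adjusted p = 7.1e-07). Its partner cyclin B1 (Ccnb1) rose by 1.09 ± 0.20 and the proliferation marker Mki67 by 1.03 ± 0.11, each with non-overlapping groups. For Cenpe, a kinetochore motor, the 72 h arrays did not agree, at 6.24, 6.29 and 4.20 against 4.34, 3.90 and 3.88 at 24 h, and its call (1.54 ± 0.44, adjusted p = 0.0106) was lost without replicate 1 or without replicate 2 of the 72 h group. Replicate 3 was the lowest 72 h array in all 56 rising members. Without it 56 members rose and without replicate 3 of the 24 h group 54 did, and over all 6 ways of leaving out 1 array the number ran from 49 to 56. The exceptions, singled out after their values were seen, were Mybl2 and Cenpm. Mybl2, which encodes B-Myb, read 4.22, 5.01 and 4.70 at 24 h and 3.80, 4.55 and 2.97 at 72 h, a difference of -0.87 ± 0.30 (adjusted p = 0.03) with overlapping groups. The 72 h mean of Mybl2, 3.77, lay near the floor, where the size of a difference depends on the background correction. In 4 of the 6 fits that left out an array no member of the list was lower. Cenpm, of the inner kinetochore, differed by 0.40 ± 0.17 (adjusted p = 0.0731).

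Signals of this list at 6 h are set beside these, from separate samples of DMSO cells. From 6 h to 24 h all 58 members fell, with a median of -2.05. Of all tested genes 58.8% changed in that interval, 28.3% upward and 30.5% downward. That interval shares its 24 h arrays with the later one, so the 2 sets of values are given side by side and not related to each other. In 56 of the 58 members the 72 h mean still lay below the 6 h mean. Mki67 had a mean of 11.68 at 6 h, 9.96 at 24 h and 10.99 at 72 h.

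**Figure D1:**
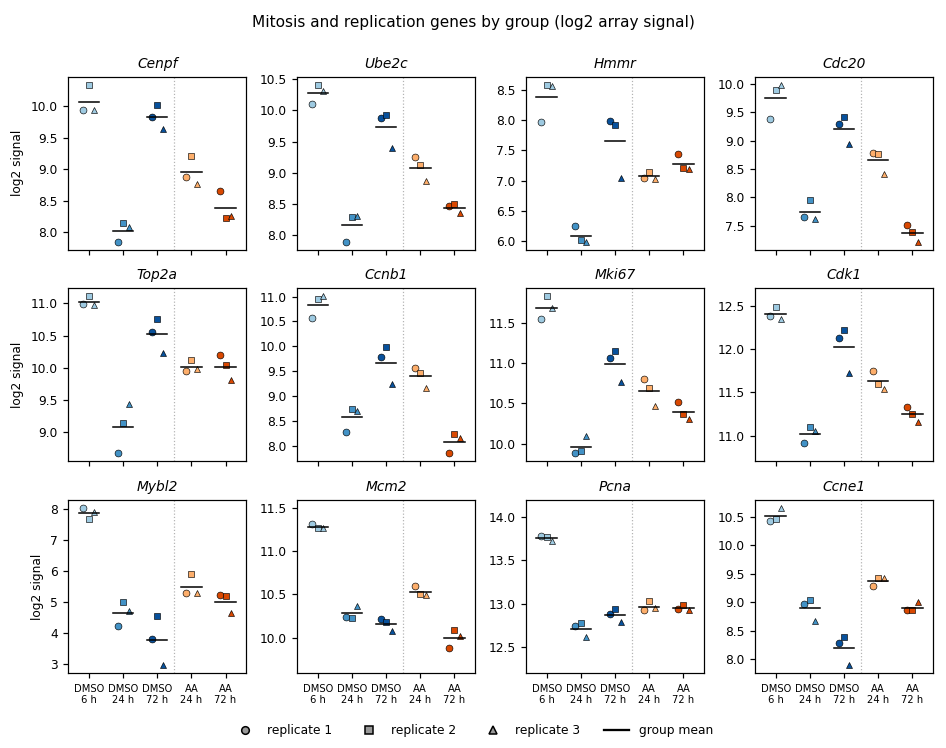
Log2 array signal (y axis) of 9 mitosis genes and 3 replication genes in the 5 groups on the x axis, each point 1 array with its replicate number as the symbol and the group mean as a bar. In the DMSO groups the first 8 genes fall from 6 h to 24 h and stand higher again at 72 h, with replicate 3 lowest at 72 h. Mybl2, Mcm2 and Ccne1 do not rise from 24 h to 72 h, and Pcna differs by 0.16.

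The promoters of these genes carry letters in common, and they are shown for 4 rising members and for Mybl2. Each sequence runs from 250 bases before to 50 after the annotated start, 5′ to 3′ on the gene's strand, from RefSeq on build GRCr8. Capitals mark the CCAAT box (CCAAT or its complement ATTGG) and the cell cycle homology region (TTTGAA or TTCAAA), the elements described for mitotic promoters.
Cenpf (chr13:103760837-103761136, minus strand): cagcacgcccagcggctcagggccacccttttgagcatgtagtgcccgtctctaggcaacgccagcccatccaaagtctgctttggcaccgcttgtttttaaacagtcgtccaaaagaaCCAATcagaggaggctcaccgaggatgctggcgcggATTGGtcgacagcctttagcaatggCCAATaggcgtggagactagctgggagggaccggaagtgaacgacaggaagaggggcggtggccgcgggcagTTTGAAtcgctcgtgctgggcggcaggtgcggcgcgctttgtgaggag
Hmmr (chr10:25665166-25665465, minus strand): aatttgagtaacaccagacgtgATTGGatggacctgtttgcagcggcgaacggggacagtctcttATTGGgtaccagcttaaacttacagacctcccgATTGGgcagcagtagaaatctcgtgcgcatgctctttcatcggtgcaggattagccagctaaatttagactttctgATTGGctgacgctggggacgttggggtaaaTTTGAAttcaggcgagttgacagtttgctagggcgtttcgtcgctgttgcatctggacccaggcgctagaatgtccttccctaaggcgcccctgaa
Cdc20 (chr5:137255750-137256049, minus strand): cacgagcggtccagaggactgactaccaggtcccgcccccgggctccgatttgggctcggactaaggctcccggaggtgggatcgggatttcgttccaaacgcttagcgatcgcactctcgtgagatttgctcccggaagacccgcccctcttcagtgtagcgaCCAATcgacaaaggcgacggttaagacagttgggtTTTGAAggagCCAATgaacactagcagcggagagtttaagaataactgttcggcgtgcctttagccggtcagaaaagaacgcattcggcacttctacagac
Cdk1 (chr20:19265043-19265342, plus strand): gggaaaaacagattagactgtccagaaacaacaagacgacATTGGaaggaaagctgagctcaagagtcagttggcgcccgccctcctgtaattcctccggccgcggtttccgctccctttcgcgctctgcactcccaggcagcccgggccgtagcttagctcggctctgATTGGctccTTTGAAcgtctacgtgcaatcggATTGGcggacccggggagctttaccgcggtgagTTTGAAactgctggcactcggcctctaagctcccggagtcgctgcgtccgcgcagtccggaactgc
Mybl2 (chr3:172124555-172124854, plus strand): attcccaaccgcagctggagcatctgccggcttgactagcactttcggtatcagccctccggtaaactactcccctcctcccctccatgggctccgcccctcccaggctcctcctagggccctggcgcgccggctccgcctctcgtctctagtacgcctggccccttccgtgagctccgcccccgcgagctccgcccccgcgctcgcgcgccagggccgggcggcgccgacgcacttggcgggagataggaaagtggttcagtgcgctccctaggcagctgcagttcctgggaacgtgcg
Of the 58 tested members 49 had a promoter in the table. Among these 36 (73.5%) held a CCAAT box on either strand, where 37.7% of all 27457 promoters of the same length and 38.8% of those of tested genes did. The cell cycle homology region stood in 31 (63.3%), against 18.1% and 11.2%, and both stood in 25 (51.0%), against 7.25% and 4.79%. The matches of both elements shared a base in 2 members. In the Mybl2 window neither string occurs, and some rising members with a promoter likewise hold neither. Cenpm, which did not pass, holds a cell cycle homology region. Whether the strings go with the direction of change was not tested, since only 1 member of the list fell. A match is a description of the letters and says nothing of binding.

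Most genes of the G1/S transition and DNA replication did not pass the test. Of 50 tested, 11 were higher, 4 lower and 35 did not pass, with a median of 0.15. The share higher was 22.0%, against 17.2% of all tested genes, and the share lower 8.0%, against 17.1%. The helicase subunit Mcm2 read 10.24, 10.22 and 10.37 at 24 h and 10.21, 10.19 and 10.08 at 72 h (-0.12 ± 0.08, adjusted p = 0.246). Pcna, the sliding clamp of DNA polymerase, differed by 0.16 ± 0.06 (adjusted p = 0.0347), a call that was lost in 6 of 16 alternative fits. Asf1b, a histone chaperone, rose by 0.91 ± 0.11 and the transcription factor E2f1 by 0.74 ± 0.20. Cyclin E1 (Ccne1), which starts S phase, fell from 8.98, 9.04 and 8.67 to 8.28, 8.39 and 7.90 (-0.70 ± 0.12), and the licensing factor Cdt1 from 10.40, 10.73 and 10.75 to 10.04, 10.17 and 9.70 (-0.66 ± 0.11). Thymidylate synthase (Tyms) fell by 0.58 on the log2 scale. Without replicate 3 of the 72 h group 14 members rose and without replicate 3 of the 24 h group 7 did.

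The promoter of Cdt1, a falling member with an E2F site (GCGGGAA or TTCCCGC, in capitals), is shown beside those of the mitotic genes and holds no CCAAT box.
Cdt1 (chr19:67528999-67529298, plus strand): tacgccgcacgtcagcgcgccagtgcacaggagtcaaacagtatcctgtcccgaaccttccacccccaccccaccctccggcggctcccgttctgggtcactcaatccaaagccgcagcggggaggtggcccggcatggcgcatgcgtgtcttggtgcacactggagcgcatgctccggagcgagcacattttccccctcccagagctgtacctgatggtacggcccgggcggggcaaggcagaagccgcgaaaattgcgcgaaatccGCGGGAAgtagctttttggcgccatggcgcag
Of 43 replication genes with a promoter 17 (39.5%) held that string, against 4.47% of all promoters and 8.98% of those of tested genes. The differences of these 17 ran from -0.66 in Cdt1 to 0.76 in Gins3, a subunit of the replicative helicase.

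Repair genes of homologous recombination and the Fanconi pathway rose in 10 of 19 tested members (52.6%) with none lower (median 0.42). Of all tested genes 17.2% rose and 17.1% fell. Ube2t, the ubiquitin-conjugating enzyme of the Fanconi pathway, read 7.01, 7.16 and 7.40 at 24 h and 8.65, 8.84 and 8.21 at 72 h, 2.60-fold higher, and Fancd2, its substrate, rose by 0.86 ± 0.17. The count of 10 fell to between 5 and 6 without replicate 2 or 3 of the 24 h group or replicate 2 of the 72 h group. Of the D cyclins, kinase inhibitors and pocket proteins 8 of 20 were higher, 2 lower and 10 did not pass. The inhibitor p27 (Cdkn1b) read 13.30, 13.32 and 13.41 at 24 h and 13.91, 13.78 and 13.82 at 72 h (0.49 ± 0.08), p19 (Cdkn2d) rose by 0.91 ± 0.14 and p18 (Cdkn2c) by 0.60 ± 0.12. The D cyclin Ccnd3 rose by 0.52 ± 0.08, while Ccnd1 (-0.01 ± 0.09, adjusted p = 0.932) and the inhibitor p21 (Cdkn1a, -0.08 ± 0.09, adjusted p = 0.538) did not pass.

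Genes of cholesterol synthesis had the lowest median of the lists. Of 21 tested genes 18 were lower at 72 h and none higher, with a median of -1.41, and in all 21 the 3 arrays at 72 h lay below the 3 at 24 h, an arrangement held by 25.9% of all tested genes. Mevalonate diphosphate decarboxylase (Mvd) read 9.13, 9.21 and 9.37 at 24 h and 5.97, 6.24 and 4.82 at 72 h, 11.8-fold lower (adjusted p = 2.97e-08). The sterol reductase Tm7sf2 read 10.11, 10.25 and 10.25 and then 6.56, 6.92 and 5.40, a difference of -3.91 ± 0.31. In both, the 24 h arrays lay within 0.3 of each other and replicate 3 was the lowest at 72 h.

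The fall ran from the start of the pathway to its end. Acat2, which joins the first acetyl units, fell by 1.93 on the log2 scale, from 11.70, 11.75 and 11.83 to 9.92, 9.99 and 9.58. Isopentenyl diphosphate isomerase (Idi1) fell by 2.19, from 11.84, 11.96 and 11.84 to 9.91, 9.88 and 9.27. Squalene epoxidase (Sqle), the first oxygen-dependent step, fell by 1.90, from 11.47, 11.44 and 11.35 to 9.62, 9.64 and 9.31. Late enzymes that trim the ring fell as well, Hsd17b7 by 2.67 and Nsdhl by 1.88. The feedback gene Insig1, itself a target of the pathway's regulator, fell by 1.55, from 11.90, 12.06 and 11.97 to 10.45, 10.55 and 10.27. The 3 members that did not pass were the synthase Fdft1 (-0.40 ± 0.17, adjusted p = 0.0744), the escort protein Scap (-0.22 ± 0.10, 0.0939) and the regulator Srebf2 (-0.26 ± 0.12, 0.103). Replicate 3 was the lowest 72 h array in all 18 falling members, and 18 fell in each of the 6 fits that left out an array. Of 17 members with a promoter 1 (5.88%) held the sterol element core TCACCCC or its complement, where 4.59% of all promoters did. That member was Srebf2, which did not pass. Only this exact string was searched, so variants of the element would be missed.

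**Figure D2:**
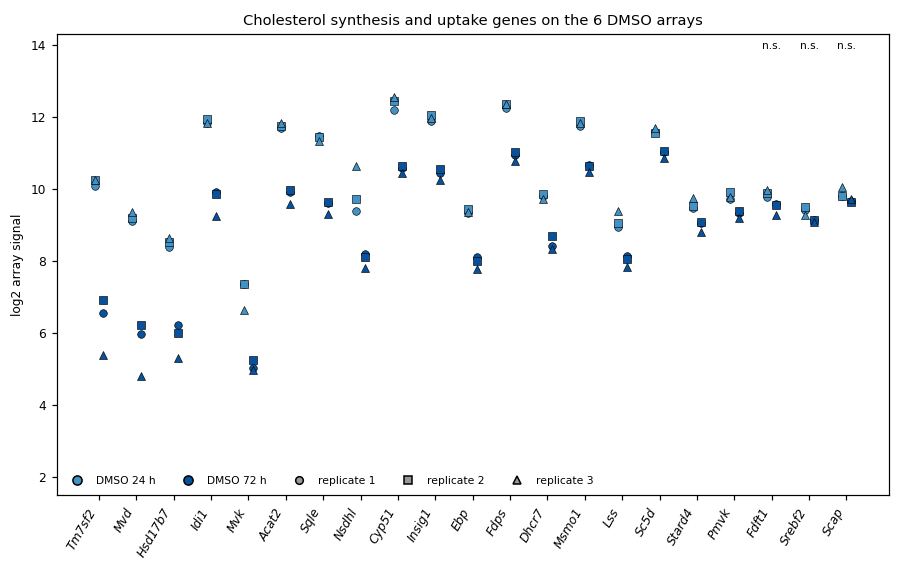
Log2 array signal (y axis) of the 21 tested genes of cholesterol synthesis and uptake (x axis, ordered by change) on the 3 DMSO 24 h arrays (light) and the 3 DMSO 72 h arrays (dark), with the symbol giving the replicate and n.s. marking the 3 genes that did not pass the test. The dark points lie below the light points in every gene.

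Fatty acid synthesis genes were lower as well, with 9 of 14 tested genes lower, none higher and a median of -0.86. The desaturase Fads2 read 9.29, 9.49 and 9.55 at 24 h and 7.47, 7.34 and 7.26 at 72 h, 4.25-fold lower, and the acetate-activating enzyme Acss2 was 3.36-fold lower. Acetyl-CoA carboxylase (Acaca, -1.09 ± 0.14), fatty acid synthase (Fasn, -0.88 ± 0.15) and ATP citrate lyase (Acly, -0.85 ± 0.10) all fell. Lpcat3, a phospholipid-remodelling enzyme of the LXR list, was 2.06-fold lower. In the list of fatty acid oxidation and PPAR targets 2 of 19 genes rose and none fell. These were Angptl4, an inhibitor of lipoprotein lipase, which read 3.20, 2.66 and 3.09 at 24 h and 5.83, 5.73 and 6.15 at 72 h, and Pdk4, which holds back pyruvate oxidation, at 7.74, 7.39 and 7.40 and then 8.79, 8.97 and 8.97. Angptl4 was near the array floor at 24 h and passed the filter on low signal through groups where it was high. Its fold and its call therefore depend on the background correction.

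Of 21 glycolysis genes 10 were lower, none higher and 11 did not pass, with a median of -0.42. Gapdh read 14.61, 14.66 and 14.59 at 24 h and 13.73, 13.70 and 13.71 at 72 h (-0.91 ± 0.07), the arrays of each time lying within 0.1 of each other. The glucose transporter Slc2a1 read 9.18, 9.12 and 8.95 and then 8.19, 8.01 and 7.72 (-1.11 ± 0.18). Aldolase C (Aldoc) fell by 2.54 on the log2 scale, to a mean near the floor. Among targets of FoxO and MondoA, transcription factors that respond to insulin and glucose, 9 of 20 rose and 2 fell. Klf15 read 8.15, 7.94 and 7.48 at 24 h and 9.27, 9.34 and 9.59 at 72 h (1.54 ± 0.19), and Txnip, which restrains glucose uptake, rose by 0.44 ± 0.07. In the hypoxia list 6 of 18 were higher (33.3%) and 7 lower (38.9%), among them Hilpda (0.53 ± 0.11) and Ddit4 (-0.97 ± 0.14). The shares of all tested genes were 17.2% and 17.1%. The number higher was 2 to 5 when 1 array was left out, with 2 without replicate 2 of the 72 h group.

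Most proteasome genes were slightly lower. Of 36 proteasome subunits 25 were lower and 1 higher, 10 did not pass, and the median was -0.29. The ATPase subunit Psmc5 read 10.67, 10.62 and 10.57 at 24 h and 10.01, 10.03 and 10.03 at 72 h, 1.51-fold lower, and Psmd2 was 1.48-fold lower. The member that rose was Psmb8, a subunit of the interferon-induced immunoproteasome (0.61 ± 0.23, adjusted p = 0.0428), and this call was lost in 6 of 15 alternative fits. Without replicate 3 of the 72 h group 19 subunits fell, and as many without replicate 2 of the 24 h group. Of 35 cytosolic ribosomal proteins 19 were higher, none lower and 16 did not pass, with a median of 0.13. That count depended on the processing and came to 6 after quantile normalization and 9 without an intensity trend. Leaving out single arrays gave 9 to 17, with 9 without replicate 3 of the 24 h group and 11 without replicate 3 of the 72 h group. Of 19 aminoacyl-tRNA synthetases 8 fell and none rose (median -0.20).

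Genes of the amino acid response under ATF4 had 4 of 25 higher and 7 lower, with 2 to 4 higher when 1 array was left out. The share higher lay below the 17.2% of all tested genes and the share lower above the 17.1%. The other 14 did not pass, and the median was 0.02. The large neutral amino acid transporter Slc7a5 read 6.91, 6.36 and 6.88 at 24 h and 4.71, 4.62 and 4.98 at 72 h, 3.86-fold lower. Atf3 fell by 1.48, Trib3 by 1.36 and asparagine synthetase (Asns) by 0.96 on the log2 scale. Against these Nupr1, a stress-induced chromatin protein, read 9.61, 10.02 and 9.70 and then 11.54, 11.34 and 11.38 (1.64 ± 0.17). Targets of the antioxidant factor NRF2 were lower in 15 of 29 and higher in 2. The quinone reductase Nqo1 read 12.12, 11.66 and 11.46 at 24 h and 10.67, 10.65 and 10.81 at 72 h (-1.04 ± 0.16). Glutathione reductase (Gsr) fell by 1.27, and heme oxygenase (Hmox1) was 2.30-fold lower. The 2 that rose were the epoxide hydrolase Ephx1 (1.06 ± 0.11) and the glutathione transferase Gsta1 (0.80 ± 0.21). Without replicate 3 of the 72 h group 10 members fell.

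Many actin genes were lower. Of 27 genes of actin and its regulator SRF 18 were lower and none higher, with a median of -0.31. The skeletal actin gene Acta1 read 6.04, 6.86 and 6.37 at 24 h and lay at the floor at 72 h (2.83, 2.61 and 2.67). Transgelin (Tagln), an actin-binding protein of smooth muscle, read 13.46, 13.71 and 13.65 and then 12.23, 12.36 and 11.75, 2.82-fold lower, and smooth muscle actin (Acta2) was 2.12-fold lower. Replicate 3 of the 72 h group was the lowest 72 h array in 14 of the 18, and without it 16 fell. Of 11 mesenchymal genes 6 fell and 1 rose. The hyaluronan receptor Cd44 read 6.39, 6.52 and 6.39 at 24 h and 5.17, 4.93 and 3.83 at 72 h, and vimentin (Vim) fell by 0.52 on the log2 scale. The member that rose was Twist1, a transcription factor of mesenchyme, at 5.93, 5.53 and 4.25 and then 6.33, 6.28 and 6.49.

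Matrix genes changed in both directions, 8 of 33 higher and 13 lower, with 5 to 8 higher when 1 array was left out. Collagen I (Col1a1) read 9.71, 9.87 and 9.72 at 24 h and 7.82, 7.63 and 6.98 at 72 h, 4.89-fold lower, and the secreted protein fibulin 2 (Fbln2) fell from 9.33, 9.56 and 9.13 to 6.29, 6.36 and 5.34. Osteopontin (Spp1), which tubule cells secrete in injury, fell by 1.88, and the laminin chains Lama3 by 1.89 and Lamb3 by 1.72. Agrin (Agrn), a basement membrane proteoglycan, rose from 11.94, 12.05 and 12.02 to 13.29, 13.31 and 13.31, with the arrays of each time nearly equal. Collagen III (Col3a1, 0.48 ± 0.10) and collagen XII (Col12a1, 1.15 ± 0.18) rose, so the collagens did not move as 1 group. Among 17 tested junction genes and keratins 4 rose and 4 fell (23.5% each, beside 17.2% and 17.1% of all tested genes). The tight junction proteins occludin (Ocln, 0.81 ± 0.21) and cingulin (Cgn, 0.76 ± 0.14) rose and keratin 8 (Krt8) fell by 1.10.

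Aquaporin 1 (Aqp1), the water channel of the proximal tubule and descending limb, had the largest fitted difference of the tested genes. It read 3.52, 3.64 and 2.48 at 24 h and 8.48, 8.39 and 8.43 at 72 h, a difference of 5.22 ± 0.28 (adjusted p = 3.43e-10). A second probe set of the gene changed in the same direction. Aqp1 passed the filter on low signal through the groups where it was high, and its 24 h values lie near the floor, so the size of the difference, its place among the genes and its p all depend on the background correction. Of the other proximal tubule genes tested, the megalin adaptor Dab2 rose by 0.72 ± 0.09. Creatine-synthesising Gatm fell from 7.89, 7.62 and 7.66 to 6.49, 5.17 and 4.84, and the amino acid transporter Slc7a9 (-1.09 ± 0.21) and the peptidase Mme (-0.94 ± 0.22) fell as well. Of the 10 tested, 2 rose (20.0%), 3 fell (30.0%) and 5 did not pass, so Aqp1 did not stand for the list.

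Of the other large increases, Il33, a nuclear alarmin cytokine, was near the floor at 24 h (2.95, 3.15 and 2.95) and read 6.81, 6.99 and 7.11 at 72 h. Pkhd1l1, a large membrane protein named after the polycystic kidney gene, read 2.93, 3.59 and 4.04 and then 7.83, 7.60 and 7.73. Fgf1, a growth factor, read 2.89, 2.88 and 3.44 and then 5.61, 5.96 and 4.92. All 3 started near the floor, so the size of the difference depends on the background correction. Like Aqp1, they passed the filter on low signal through groups where they were high. Their groups did not overlap, as in 52.6% of all tested genes, but the filter favours that arrangement in such genes. In the list of complement and acute phase genes 5 of 6 tested were higher and none lower (median 0.68), from 0.37 in C1r to 2.41 in Cd55. The decay-accelerating factor Cd55, which shields cells from complement, read 7.65, 7.92 and 7.56 at 24 h and 10.08, 10.19 and 10.09 at 72 h, 5.31-fold higher. The C1 inhibitor Serping1 read 6.30, 6.62 and 6.49 and then 8.64, 8.65 and 8.50, and the protease C1s, which it inhibits, rose by 0.76 ± 0.21. The small proteoglycans Fmod (2.59 ± 0.27) and Podn (2.24 ± 0.26), the chemokine-scavenging receptor Ackr4 (2.27 ± 0.35), the transcription factors Mycn (2.15 ± 0.22) and Smad9 (1.87 ± 0.24), and the junction protein Cgnl1 (1.85 ± 0.18) also rose.

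Large decreases fell outside the lipid genes too. The extracellular microfibril protein Mfap4 read 8.92, 9.14 and 8.73 at 24 h and 5.72, 5.43 and 4.58 at 72 h, 12.9-fold lower. Glypican 3 (Gpc3), a heparan sulfate proteoglycan, was 7.99-fold lower, and the zinc exporter Slc30a1, at 7.46, 6.56 and 5.86 and then 3.50, 3.55 and 3.36, was 8.91-fold lower. The threonine-catabolising enzyme Gcat was 7.01-fold lower, the sphingosine phosphate lyase Sgpl1 5.64-fold and the efflux pump Abcg2 5.01-fold. Gpc3 and Slc30a1 ended below log2 4, near the floor, where a fold depends on the background correction. The receptor Met, for hepatocyte growth factor, read 6.16, 5.86 and 6.06 and then 4.53, 3.69 and 3.63, whereas Kit ligand (Kitlg) was 2.83-fold higher. Of 14 genes of the IGF axis and growth factor receptors 8 rose and only Met fell.

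**Figure D3:**
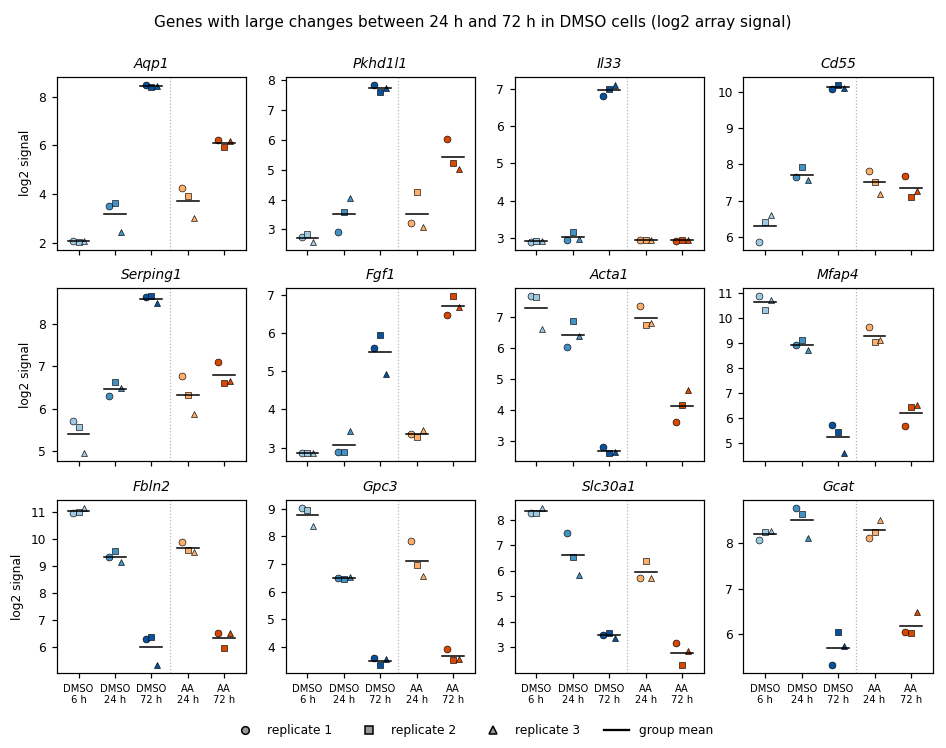
Log2 array signal (y axis) of 6 genes that rose and 6 that fell from 24 h to 72 h in DMSO cells, in the 5 groups on the x axis, each point 1 array and each bar a group mean. Il33 leaves the floor in the DMSO 72 h group and not in the AA groups, while Mfap4, Fbln2, Gpc3 and Slc30a1 are low at 72 h in both treatments.

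The gene lists together show how uneven the change was. Among lists with at least 10 tested members the share called was highest in mitosis and lowest in fatty acid oxidation (2 of 19). The oxidative phosphorylation list (10 of 67 higher and 1 lower) also lay below the background in both directions with all arrays. So did the heat shock chaperones (3 of 20 each way) and the YAP and TEAD targets (2 of 15 each way). Without replicate 3 of the 24 h group oxidative phosphorylation had 5 higher and 7 lower.

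**Figure D4:**
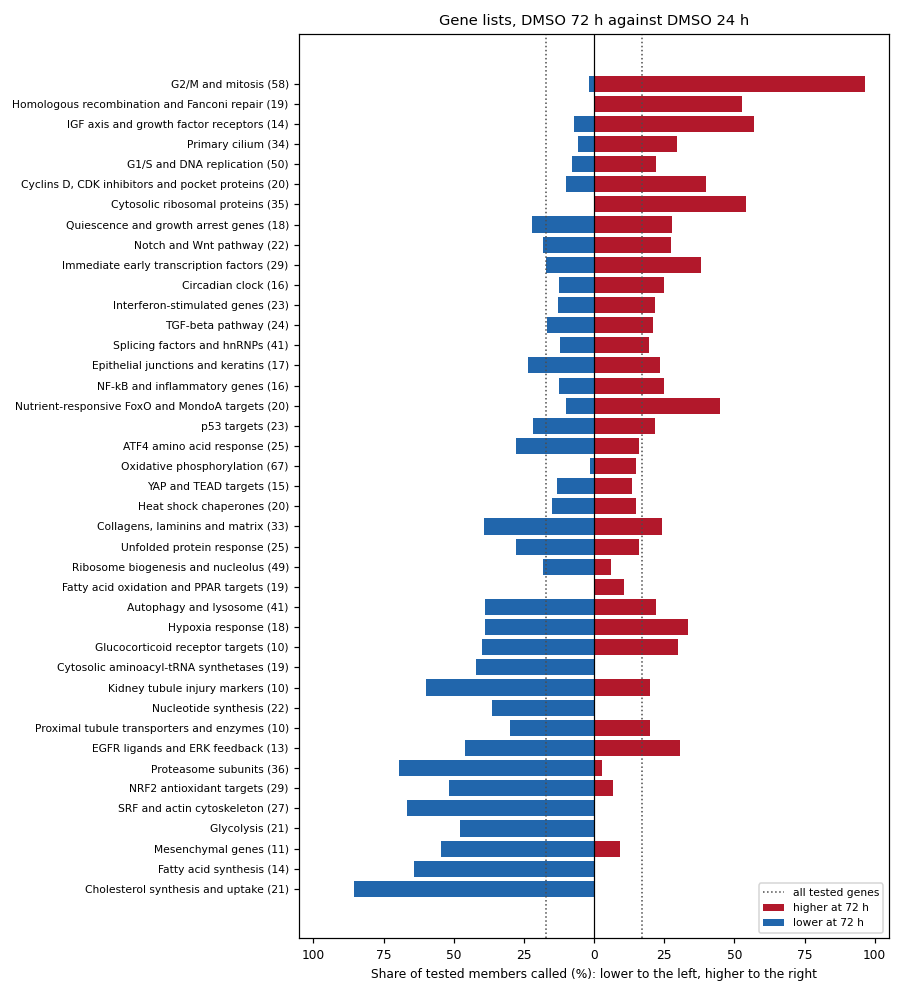
Share of tested members called lower (left, blue) and higher (right, red) at DMSO 72 h than at 24 h for each gene list with at least 10 tested members (number in brackets), ordered by the median log2 difference. Dotted lines mark the share among all tested genes, 17.2% higher and 17.1% lower; mitosis stands at the top with 56 of 58 higher and cholesterol synthesis at the bottom with 18 of 21 lower.

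The same interval in AA cells shares no array with this comparison, and 2701 genes (30.0%) were higher and 2053 (22.8%) lower there at 72 h than at 24 h, together 52.7%. Of the 1551 genes that rose in DMSO cells 823 also rose in AA cells, 53.1% of the DMSO list and 30.5% of the AA list, and 171 fell. Of the 1545 that fell 769 also fell, 49.8% and 37.5% of each list, and 174 rose. The change itself differed between treatments, by a test of the difference, in 2920 genes (32.4%), 1682 more positive in AA (18.7%) and 1238 more negative (13.7%). It differed in 612 of the 1551 and in 636 of the 1545. The test of the difference uses the same DMSO arrays by which these genes were chosen, so the choice itself can raise these counts. The same holds below wherever genes called in DMSO cells are counted for a difference.

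Among lists with at least 10 tested members, the medians of the treatments lay furthest apart in mitosis. In AA cells 5 of the 58 genes were higher and 20 lower at the later time (list median -0.26), and the change was more negative than in DMSO cells in 49. Cdc20 fell by 1.28 on the log2 scale in AA cells, and its change differed by -2.75 ± 0.28 (adjusted p = 5.75e-07). Cholesterol synthesis fell in both: all 18 genes that fell in DMSO cells also fell in AA cells (median of the list there -1.10), with a difference between treatments called in 8 of them. Col1a1 (-2.22 in AA), Fbln2 (-3.33) and Agrn (1.27) likewise changed in AA cells by an amount close to that in DMSO cells. The NRF2 targets went apart, 15 of 29 rising and 4 falling in AA cells, as did Nqo1, which rose there by 1.43. The p53 targets had 5 of 23 higher and 5 lower in DMSO cells (21.7% each, beside 17.2% and 17.1% of all tested genes). Without replicate 2 of the 72 h group 3 were higher. In AA cells 21 of them were higher and 2 lower. Mdm2, the ubiquitin ligase of p53, was among those that fell in DMSO cells (-0.85 ± 0.12) and rose by 1.24 in AA cells. Of the complement genes that rose in DMSO cells none was called higher in AA cells, where Cd55 changed by -0.15 and Serping1 by 0.47, and the difference was called in 4 of the 5. Il33 remained at the floor in AA cells (change -0.01).

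**Figure D5:**
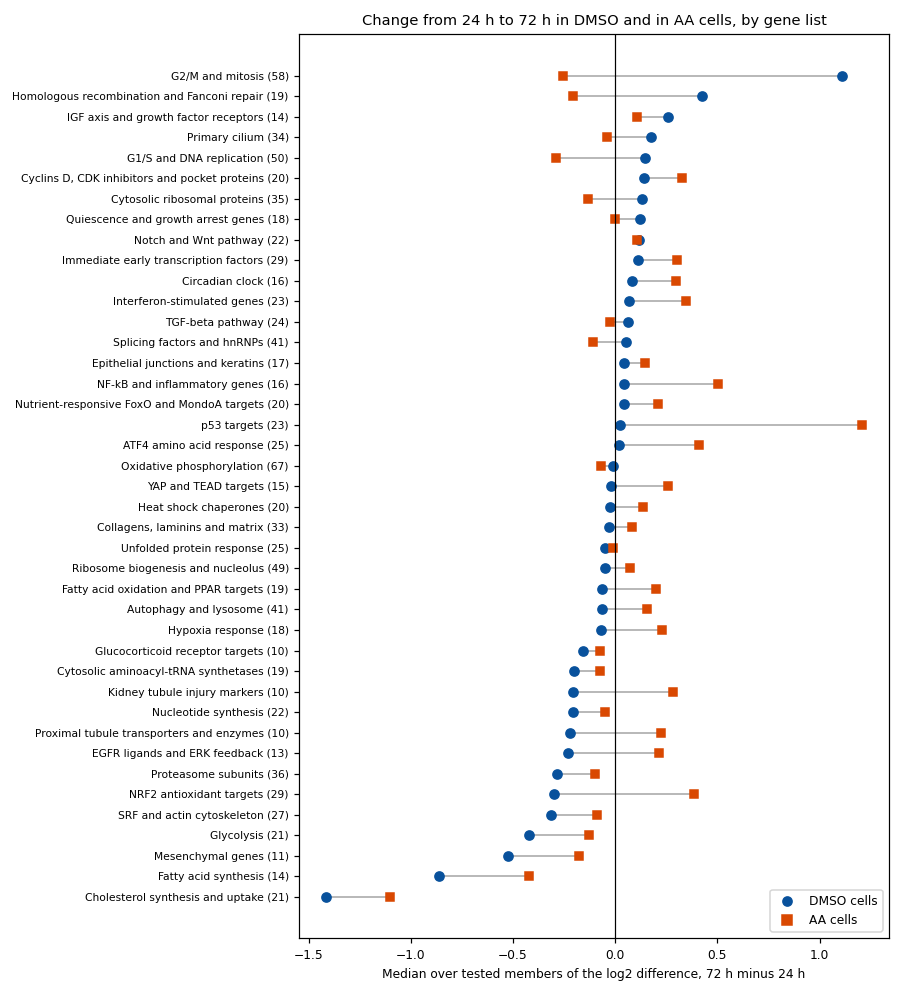
Median log2 difference between 72 h and 24 h over the tested members of each gene list (x axis), in DMSO cells (circles) and AA cells (squares), joined by a line, for lists of at least 10 tested members (number in brackets). The mitosis list stands at 1.11 in DMSO cells and -0.26 in AA cells, the p53 targets at 0.02 and 1.21, and cholesterol synthesis at -1.41 and -1.10.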

How the data were processed

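Per the labels' protocols, Trizol-extracted total RNA was made into biotin-labelled cRNA for Affymetrix rat arrays. The authors deposited log2 values per probe set, and GCRMA is the method named in the submitters' processing notes, without settings. GCRMA subtracts a background modelled from probe sequence, so values near log2 2 to 4 are a floor whose level the model sets. No scan date or batch is known. Of 31099 probe sets, 20832 had 1 gene symbol in GEO's platform annotation, 20764 of which were matched by gene number to RefSeq (GRCr8), and 9831 had none. Each of 14218 genes is its probe set with the highest mean over all 18 arrays, and 9016 genes were tested, those whose value reached log2 4 on 3 arrays or more. The 6 group means were fitted together with limma 3.58.1 in R 4.3.3 (lmFit, eBayes with an intensity trend, 12 residual and 7.27 prior degrees of freedom), two-sided, with Benjamini-Hochberg adjustment over the tested genes and a threshold of 0.05. SE is the fit's standard error. The step was tested on simulated data. Promoters came from RefSeq (GRCr8) and were matched by gene. Arrays limit the precision through their number, 3 in each group.

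Named genes are the 15 largest called increases and decreases with non-overlapping groups and a higher mean of at least log2 6, up to 8 called members of each list by size, a set named whatever its test, the 5 largest differences between treatments each way, and other cells' markers above log2 4. The members and lists were chosen with earlier results of these data known. Alternatives were array centring, quantile normalization, other filters, no intensity trend, the mean of a gene's probe sets, fewer arrays in the fit, a replicate block and leaving out each array. Replicate numbers were not treated as pairs, since the deviations of same-numbered arrays correlated at -0.106, 0.135 and 0.0164.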

Additional observations from a re-analysis of the deposited data

Results flagged for a closer look

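The change from 24 h to 72 h differed between AA and DMSO cells, by limma's test of the difference, in 2920 genes. By list, the difference was called in 50 of 58 mitosis genes, 21 of 35 ribosomal proteins, 19 of 29 NRF2 targets, 18 of 23 p53 targets, 16 of 25 ATF4 genes, 16 of 29 immediate early genes, 12 of 19 recombination and Fanconi genes, 9 of 18 hypoxia genes, 8 of 16 inflammatory genes and 6 of 10 proximal tubule genes. These stand against 32.4% of all tested genes.

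Single genes reached differences of several log2 units, given here as the change in AA cells minus that in DMSO cells. Phospholamban (Pln) had 6.66, Atf3 4.70, Spetex2l2 4.45, the steroid transporter subunit Slc51a 4.41 and Osgin1 4.004. Below 0 lay Cfap299 at -4.90, the carbohydrate kinase Fggy at -4.87, Gmds, of GDP-fucose synthesis, at -4.50, Gpc6 at -4.07 and Il33 at -3.97. All but Gpc6 had at least 1 group mean near or below log2 4, so the size and order of these differences depend on the background correction. In DMSO cells alone only 3 of these 10 passed the test between 24 h and 72 h: Il33 (3.96) and the glypican Gpc6 (0.89) rose and Atf3 fell by 1.48.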

How the results depend on the processing

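The number of genes called between DMSO 24 h and 72 h ran from 2769 without the filter to 3556 with only the 6 arrays compared. Counting only changes of at least 2-fold left 382 genes, 179 higher and 203 lower. Leaving out 1 array gave 2458 to 2712 genes (1176 to 1379 higher, 1203 to 1499 lower), 4126 to 4633 in AA cells (2341 to 2753 higher, 1775 to 1940 lower), and 2418 to 3137 for the difference between treatments (1365 to 1869 and 1048 to 1268). With the replicate number as a block 3114 genes were called (1558 higher, 1556 lower), and 3441 with the block on only the 6 arrays, a fit added after the data were seen. Centring arrays gave 1730 higher and 1202 lower and moved the median of all genes by at most 0.05.

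Of 345 called named genes 265 were called under every alternative run. Taking the mean of a gene's probe sets reversed the sign of 6: Tjp1 (-0.36), Nr1d2 (-0.0844), Csnk1d (-0.20), Nr3c1 (-0.66), Fzd4 (-0.36) and Srsf6 (0.0594). The cause was not tested. The rise of ribosomal proteins and of recombination genes and the fall of NRF2 targets depended on single settings or arrays, as given beside them. Leaving out 1 array also took the higher calls of the hypoxia list from 6 to as few as 2, of ATF4 genes from 4 to 2, of the circadian list from 4 to 2, of interferon genes from 5 to 2, of matrix genes from 8 to 5, of p53 targets from 5 to 3 and of oxidative phosphorylation from 10 to 5. Signals near the floor limit 174 tested genes at 24 h and 189 at 72 h.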

Other observations

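Regulators of quieter pathways changed singly between DMSO 24 h and 72 h. In the circadian list 4 of 16 genes rose and 2 fell, with 2 to 4 rising when 1 array was left out. With all arrays the share rising lay above the 17.2% of all tested genes and the share falling below the 17.1%. The repressor Bhlhe40 read 10.55, 10.44 and 10.08 at 24 h and 8.48, 8.80 and 8.58 at 72 h, and Tef, a PAR-domain transcription factor, fell by 0.60. Hlf, of the same family as Tef, rose by 1.04 ± 0.29 and fell by 1.55 in AA cells. In each of these 3 genes the DMSO groups did not overlap. Tsc22d3, a glucocorticoid-induced leucine zipper, rose from 12.29, 12.37 and 12.09 to 13.29, 13.28 and 13.19 and fell by 0.43 in AA cells. In the list of glucocorticoid receptor targets, which holds it, 3 of 10 rose and 4 fell, the latter including the chaperone Fkbp5 (-0.79), the kinase Sgk1 (-0.54) and the metallothionein Mt1 (-1.19). The early growth response gene Egr2 fell by 2.04, and Id3, a helix-loop-helix inhibitor, rose by 0.77 ± 0.09.

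Cilium genes had 10 of 34 higher (29.4%) and 2 lower (5.88%), with a median of 0.17. Among those higher were the ciliary transcription factor Rfx3 (0.73 ± 0.21, with a fall of 0.71 in AA cells) and the BBSome subunit Bbs1 (0.68 ± 0.16). In the Notch and Wnt list 6 of 22 rose (27.3%) and 4 fell (18.2%), beside 17.2% and 17.1% of all tested genes. Wnt4, a ligand of kidney tubule formation, read 6.30, 7.25 and 5.98 at 24 h and 5.23, 5.43 and 4.57 at 72 h, while Znrf3, which removes Wnt receptors, rose by 0.92 ± 0.20. The BMP antagonist Nog (1.73 ± 0.29), Bmp2 (0.84 ± 0.19) and Smad3 (0.70 ± 0.09) rose. Their TGF-beta list had 5 of 24 higher (20.8%) and 4 lower (16.7%), near the shares of all tested genes. The adhesion molecule Icam1 rose from 11.83, 11.90 and 11.76 to 12.75, 12.79 and 12.81, and the cytokines Il15 (1.30 ± 0.14) and Csf1 (1.10 ± 0.19) rose, whereas Ptgs2, the inducible prostaglandin synthase, fell by 0.91.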
